A study of Mus musculus with 10 samples.

Results

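The genes described here encode the protein complexes of oxidative phosphorylation: the respiratory chain (complexes I to IV) and the ATP synthase (complex V). Members were the spots whose printed Name held, in any case of letters, the words for NADH dehydrogenase (ubiquinone), succinate dehydrogenase, ubiquinol-cytochrome c, cytochrome c oxidase or ATP synthase. This picked 67 of the 24192 spots on each array. Of these, 65 spots carried 44 distinct Names of mitochondrial genes, among 15188 distinct Names on the array, and the other 2 spots named vacuolar ATP synthases and were kept apart. The 44 Names were 42 subunits and 2 assembly factors (Ndufaf1 and Atpaf2), with 14 Names for complex I, 1 for complex II, 2 for complex III, 14 for complex IV and 13 for complex V.

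The study compared mouse pups kept from their mother for 24 h with pups that stayed with her, in tissue punched from the paraventricular nucleus (PVN), the hypothalamic nucleus that starts the hormonal stress response. The labels name no strain, age, sex, transgene or drug for either group, so none can be stated here. RNA of 6 animals per group was amplified and joined into 1 separated pool and 1 non-separated pool, and the 2 pools met on 10 2-colour spotted arrays, in 5 hybridisations per dye orientation. All 10 repeat the same pair of pools, so no p-value for maternal separation can be had. The errors below are SDs over all 10 arrays and leave out the spread between animals and litters. They include the shift between the 2 dye orientations, which averaging the orientation means takes out. They are therefore a spread of single arrays and no error of the mean.

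Complex I takes electrons from NADH and complex II takes them from succinate, and both pass them to coenzyme Q. Complex III hands them on through cytochrome c to complex IV, which reduces oxygen, and the proton gradient built on the way drives the rotary ATP synthase. Nearly all subunits are encoded in the nucleus, with a few in mitochondrial DNA, and brain tissue relies on this pathway because neurons spend much ATP on ion pumping.

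Each value below is a log2 ratio, separated pool divided by non-separated pool, taken as the mean of the 2 orientation means, so a value below 0 means less signal from the separated pool. The orientation with the separated pool labelled by Cy5 is called the Cy5 orientation, and the reverse labelling the Cy3 orientation. Direction rests on the dyes that the labels assign to each pool, channel by channel. They put Cy3 on the pool that an array's title names and Cy5 on the other pool. If the titles instead named the Cy5 pool, every sign given here would turn. The authors' deposited table ran the opposite way on all 10 arrays under this reading. A Name was read from its brightest spot and counted as above empty spots where its brightness exceeded the 95th percentile of the 1170 empty spots on at least 8 of 10 arrays. This held for 19 of the 44 Names (5 of complex I, 1 of complex II, 0 of complex III, 5 of complex IV and 8 of complex V), and for 1802 of the 15188 Names on the array. Per array, the median intensity over all spots that are no control was 286 to 529 for Cy5 and 436 to 1011 for Cy3, and no member spot was saturated. Cy3 had the higher median on every array except replicate 3 of the Cy3 orientation (529 for Cy5, 436 for Cy3). Over the 1802 brighter Names, arrays of one orientation correlated at 0.78 to 0.83 (Cy5 orientation) and 0.39 to 0.68 (Cy3 orientation). Between orientations they correlated at -0.43 to -0.06, so part of the ratios turned sign with the orientation. The 2 orientations also differ in scan day, and dye and scan day cannot be told apart. Of the peptides that mark the PVN, Avp, Oxt, Trh and Sst were printed, and none of the 4 was above empty spots.

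No member Name reached the limit of 1.5-fold with one sign on every array. Over all Names, 0.191% were lower by that rule and 0.0593% were higher. Without the rule on sign, again 0 of 44 members and 0.876% of all Names (0.444% of those above empty spots) lay beyond 1.5-fold. At any size, 4 members were below 0 on every array (Ndufa2, Ndufb9, Cox7a2l and Atp5l) and 0 were above 0 on every array, beside 1.05% and 0.454% of all Names. Among Names above empty spots the counts were 3 and 0 of 19, beside 4.27% and 1.78% of the 1802.

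The differences were small and lay mostly on the lower side among the members that gave clear signal. The median over all 44 Names was -0.05 ± 0.11 (SD of the 10 array medians), with 26 of 44 below 0, beside 48.6% of all Names. For the 19 Names above empty spots the median was -0.14 ± 0.18, with 16 of 19 below 0, beside a median of 0.04 and 44.2% below 0 over the 1802. The 25 dimmer members had a median of 0.02. In bulk tissue, fewer cells of a type and less RNA per cell cannot be told apart.

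**Figure D1:**
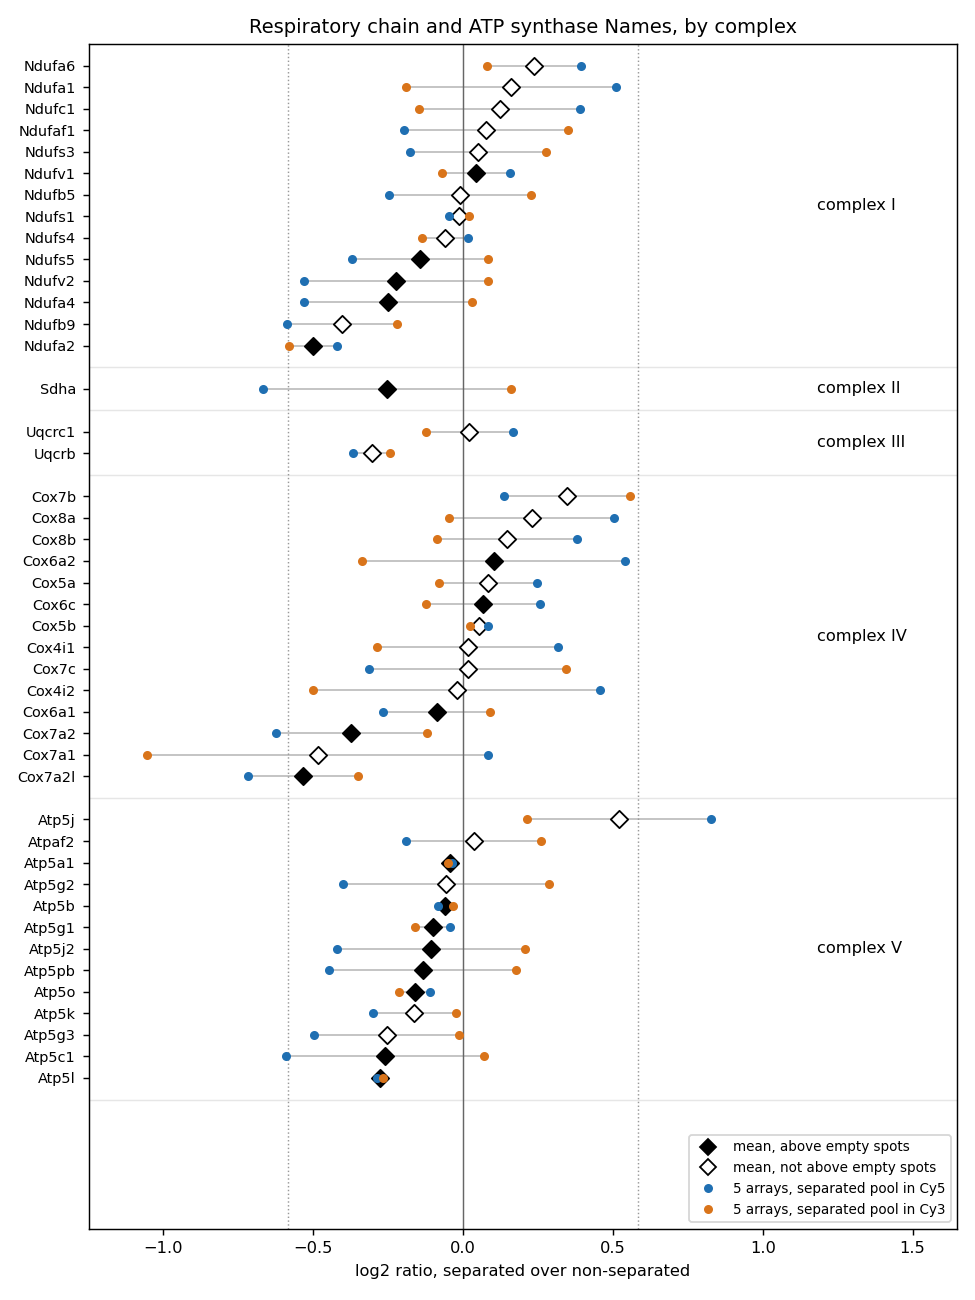
Log2 ratio of separated over non-separated for the 44 member Names, by complex. Diamonds are means over both orientations (filled where above empty spots), circles are the means of the 5 arrays of each orientation, and dotted lines mark 1.5-fold. The 16 of 19 filled diamonds to the left of 0 and the wide gaps between the circles of many Names are the features to see.

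Complex I, the entry point for NADH, held the member with the steadiest large value. Ndufa2, an accessory subunit of the NADH-oxidising arm, read -0.47, -0.35, -0.51, -0.32 and -0.46 in the Cy5 orientation, and -0.58, -0.68, -0.64, -0.55 and -0.46 in the Cy3 orientation. Every array was below 0 and the orientations overlapped in part, which gave -0.50 ± 0.11, or 1.42-fold lower. Its second spot, not above empty spots, read -0.22. Ndufb9, an accessory subunit of the membrane arm, read -0.62, -1.10, -0.68, -0.15 and -0.39 in the Cy5 orientation and -0.47, -0.15, -0.10, -0.04 and -0.35 in the other. It too was below 0 throughout (-0.41 ± 0.33), but it was above empty spots on 4 arrays only, and its second spot read 0.06.

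The 2 flavoprotein subunits at the electron-accepting end of complex I read differently. Ndufv1, which carries the NADH site and the flavin, read 0.09, 0.26, 0.05, 0.09 and 0.28 in the Cy5 orientation and -0.12, 0.23, 0.08, -0.56 and 0.02 in the Cy3 orientation. Its mean was 0.04 ± 0.24, with 8 of 10 arrays above 0. Ndufv2, an iron-sulphur subunit beside it, stood at -0.22 ± 0.38, with -0.53 in the Cy5 orientation and 0.08 in the Cy3 orientation. Ndufa4 (-0.25 ± 0.32) and Ndufs5 (-0.14 ± 0.31) had the same shape, below 0 on all 5 arrays of the Cy5 orientation and on both sides of 0 in the other. Ndufa4 was first listed as a complex I subunit and has since been placed with cytochrome c oxidase. It is grouped here by its printed Name. The other 8 complex I Names, none above empty spots, spanned -0.06 (Ndufs4) to 0.24 (Ndufa6), and they include the iron-sulphur subunits Ndufs1 and Ndufs3 and the assembly factor Ndufaf1. The median was -0.01 ± 0.17 over all 14 and -0.22 ± 0.26 over the 5 above empty spots.

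Complex II and complex III were thinly covered by Name. Sdha, the flavoprotein of succinate dehydrogenase and the only complex II Name, read -0.70, -1.05, -0.67, -0.53 and -0.40 in the Cy5 orientation, and 0.27, -0.05, 0.03, 0.27 and 0.27 in the Cy3 orientation. The 2 sets of arrays did not overlap, so its mean of -0.26 ± 0.48 falls in the gap between them. Its dimmer second spot read -0.09. Of complex III, Uqcrc1, a core subunit, had 5 spots that ranged from -0.29 to 0.02, none of them above empty spots. Uqcrb, a small subunit that helps bind coenzyme Q, read -0.31 ± 0.82, and its second spot, of nearly the same brightness, read 0.11. Neither Uqcrb spot was above empty spots. The complex III median was -0.14 ± 0.36.

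Complex IV held the largest value of any member above empty spots. Cox7a2l, a homologue of subunit VIIa that joins complexes III and IV into supercomplexes, read -0.52, -0.90, -0.71, -0.62 and -0.84 in the Cy5 orientation and -0.36, -0.26, -0.32, -0.40 and -0.42 in the Cy3 orientation. All 10 arrays were below 0, at -0.53 ± 0.22 (1.45-fold lower), and the orientations did not overlap. A second spot with the same Name was also above empty spots and read 0.56, 1.05, 0.75, 0.50 and 0.63, then 0.34, -0.73, 0.03, -0.35 and -0.44. That spot averaged 0.23 ± 0.58, so the 2 Cox7a2l spots gave opposite signs, and the value of this gene depends on which spot is read.

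The tissue isoforms of complex IV gave no common pattern. Of subunit VIIa, the broadly expressed Cox7a2 stood at -0.37 ± 0.41, with all 5 Cy5-orientation arrays below 0 (-0.96 to -0.32) and the others from -0.79 to 0.23, while the heart and muscle isoform Cox7a1 (-0.49 ± 0.97) was above empty spots on 0 arrays. Of subunit VIa, the broadly expressed Cox6a1 read -0.09 ± 0.30. Its heart and muscle isoform Cox6a2 read 0.10 ± 0.62, with orientation means of 0.54 and -0.34, and it was above empty spots on 8 arrays. The 3 muscle and heart marker Names had a median of 0.06, and 1 of them was above empty spots. Their part in the Cox6a2 value was not tested. The isoforms of subunit IV, Cox4i1 (0.02 ± 0.51) and Cox4i2 (-0.02 ± 0.72), and of subunit VIII, Cox8a (0.23 ± 0.56) and Cox8b (0.15 ± 0.94), were not above empty spots. A second spot of Cox8a read -0.12. Cox6c, an accessory subunit with clear signal on all 10 arrays, read 0.07 ± 0.23. The other 4 complex IV Names, none above empty spots, ranged from 0.02 (Cox7c) to 0.35 (Cox7b) and include Cox5a and Cox5b. The complex IV median was 0.03 ± 0.18 over 14 Names and -0.09 ± 0.15 over the 5 above empty spots.

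Complex V was the best measured. All 8 of its Names above empty spots had means below 0 (range -0.28 to -0.04), beside 44.2% of the 1802. In the catalytic F1 head, the alpha subunit Atp5a1 (-0.04 ± 0.18) and the beta subunit Atp5b (-0.06 ± 0.20) sat within their array spread of 0. Their dimmer second spots read -0.13 (Atp5a1) and 0.31 (Atp5b). The gamma subunit Atp5c1, the central shaft, read -0.40, -0.47, -0.89, -0.65 and -0.54 in the Cy5 orientation and 0.55, -0.03, 0.27, -0.22 and -0.23 in the Cy3 orientation. Its orientations did not overlap, and its mean was -0.26 ± 0.43. Atp5o, the stalk subunit that ties the head to the peripheral arm, was below 0 on 9 of 10 arrays at -0.16 ± 0.14, with a dimmer second spot at -0.44.

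In the membrane-bound F0 part, the steadiest member was Atp5l, subunit g, known in yeast to help ATP synthases pair in the inner membrane. It read -0.47, -0.26, -0.28, -0.17 and -0.25 in one orientation and -0.36, -0.31, -0.08, -0.27 and -0.32 in the other. The sets overlapped, all below 0, and the mean was -0.28 ± 0.10, or 1.21-fold lower. Atp5pb, subunit b of the peripheral stalk, was its opposite in behaviour, with -0.37, -0.42, -0.41, -0.48 and -0.55 against 0.28, 0.03, 0.14, 0.03 and 0.41. It was the 1 member below 0 on every Cy5-orientation array and above 0 on every other, a split shown by 2.01% of all Names and 8.05% of those above empty spots. The reverse split, shown by 1.94% and 10.4%, was found in 1 member, the dim complex I subunit Ndufa1 (orientation means 0.51 and -0.19). The second bright spot of Atp5pb split the same way as its first, with orientation means of -1.01 and 0.51, and all 3 Atp5pb spots averaged below 0 (-0.40 to -0.13).

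The 3 genes for subunit c, whose mature protein is the same and forms the rotating ring, read -0.10 ± 0.33 (Atp5g1, above empty spots), -0.06 ± 0.45 (Atp5g2) and -0.25 ± 0.33 (Atp5g3). None differed from the others beyond its spread over arrays. The dimmer second spots of Atp5g2 and Atp5g3 read 0.08 and 0.12. Probes for these related transcripts may cross-hybridise, which was not tested. Of the remaining F0 and stalk members, Atp5j2 read -0.11 ± 0.38 and Atp5k -0.16 ± 0.35. Atp5j had the highest value of all members at 0.52 ± 0.81, but it was above empty spots on 0 arrays and spanned -0.53 to 2.01. The assembly factor Atpaf2 read 0.04 ± 0.48. The complex V median was -0.11 ± 0.16 over 13 Names and -0.12 ± 0.18 over the 8 above empty spots.

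**Figure D2:**
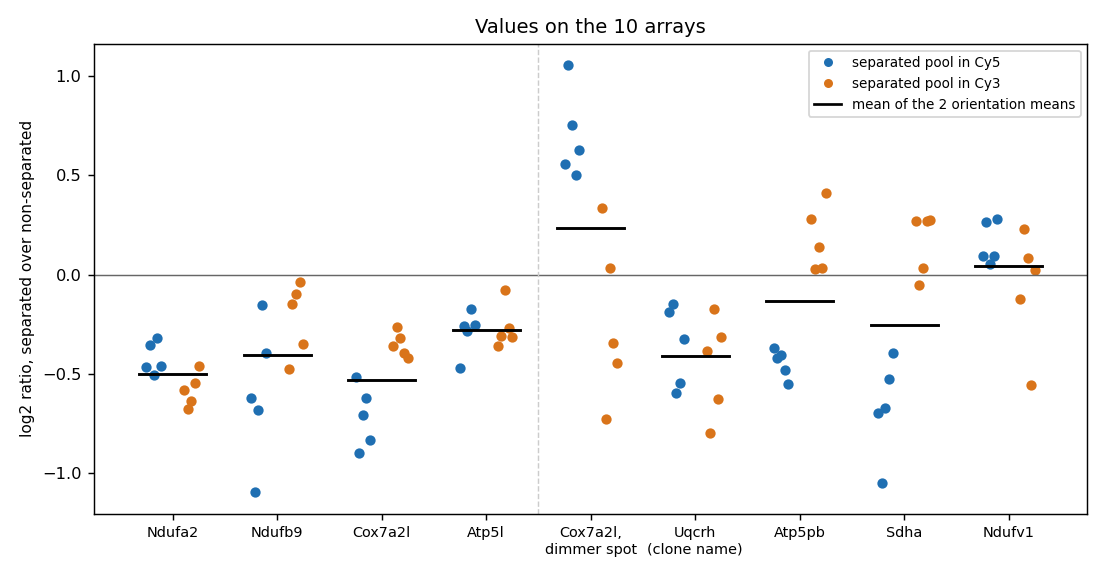
Log2 ratio on each of the 10 arrays for the 4 members below 0 throughout (left of the dashed line), and for the dimmer Cox7a2l spot, Uqcrh, Atp5pb, Sdha and Ndufv1. Blue points are arrays of the Cy5 orientation, orange points those of the Cy3 orientation, and bars are the means; Atp5l and Ndufa2 sit in a narrow band below 0 in both colours, whereas Atp5pb and Sdha part by colour.

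Promoter sequence is shown for Atp5l and Cox7a2l, of the 4 members below 0 on every array, and for the clone-named subunit Uqcrh, which was below 0 on every array too. Sdha, the complex II Name, is added as an example of a promoter with NRF1 matches. Ndufa2 and Ndufb9 are not shown. Nuclear genes of this pathway are known to share promoter sites for NRF1 and for the ETS-family factor GABP, and YY1 sites occur in some. The motif letters searched, on both strands, were the core letters CGCANGC for NRF1, CCGGAAG for the ETS family and AAGATGG for YY1, within the 250 bases before each gene's start in RefSeq (GRCm38.p6). Matches of different motifs do not overlap in the sequences printed, sequences run 5′ to 3′, and capitals mark a match.
Atp5l, chr9:44920743-44920992, minus strand: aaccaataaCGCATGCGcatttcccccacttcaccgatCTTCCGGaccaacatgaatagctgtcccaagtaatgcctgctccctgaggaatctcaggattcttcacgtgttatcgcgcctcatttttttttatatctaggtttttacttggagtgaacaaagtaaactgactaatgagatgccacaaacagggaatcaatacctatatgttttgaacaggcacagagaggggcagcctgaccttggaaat
Cox7a2l, chr17:83514334-83514583, minus strand: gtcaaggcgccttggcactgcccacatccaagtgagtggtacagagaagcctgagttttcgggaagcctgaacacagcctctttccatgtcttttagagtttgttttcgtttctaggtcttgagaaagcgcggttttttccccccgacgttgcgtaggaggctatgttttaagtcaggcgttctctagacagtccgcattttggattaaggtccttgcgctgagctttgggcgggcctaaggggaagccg
Uqcrh, chr4:116075071-116075320, minus strand: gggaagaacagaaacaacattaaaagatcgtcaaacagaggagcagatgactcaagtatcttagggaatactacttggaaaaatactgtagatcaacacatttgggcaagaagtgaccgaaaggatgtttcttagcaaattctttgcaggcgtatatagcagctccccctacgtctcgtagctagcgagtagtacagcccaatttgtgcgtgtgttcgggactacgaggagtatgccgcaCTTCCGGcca
Sdha, chr13:74350241-74350490, minus strand: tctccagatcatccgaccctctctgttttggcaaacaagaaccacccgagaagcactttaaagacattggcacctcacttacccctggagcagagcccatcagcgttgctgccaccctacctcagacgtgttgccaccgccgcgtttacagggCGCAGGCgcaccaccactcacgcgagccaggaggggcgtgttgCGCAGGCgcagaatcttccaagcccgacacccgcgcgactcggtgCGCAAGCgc
Atp5l and Uqcrh, a complex III subunit described further on, each held 1 ETS match. Atp5l also held 2 NRF1 matches that overlap on opposite strands, Sdha held 3 NRF1 matches, and Cox7a2l held no match to these letters. RefSeq promoters were at hand for 35 of the 44 member symbols. Of these 35, 28.6% held the NRF1 letters, 14.3% the ETS letters and 2.86% the YY1 letters, beside 15.3%, 7.83% and 5.18% of the 27025 genes with a promoter. A match is only a match of letters and says nothing of binding in these animals.

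The lower values came mostly from one labelling. In the Cy5 orientation, the median of the 19 members above empty spots was -0.37, -0.31, -0.29, -0.32 and -0.36. In the Cy3 orientation it was 0.14, -0.10, 0.03, -0.11 and -0.10. The sets did not overlap, while the median of all 1802 brighter Names stayed between -0.03 and 0.01 on every array. Of the 19, 8 had both orientation means below 0 and 0 had both above, beside 19.7% and 14.1% of the 1802. The other 11 had orientation means of opposite sign, beside 66.2% of the 1802. In such Names the dye term, the part that turns with the orientation, is by definition larger than the difference between the pools. The dye term also takes in any effect of scan day. Over all 44 members, 12 had both means below 0 and 4 had both above, beside 22.2% and 21% of all Names, and the dye term was the larger for 28, beside 56.8%.

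**Figure D3:**
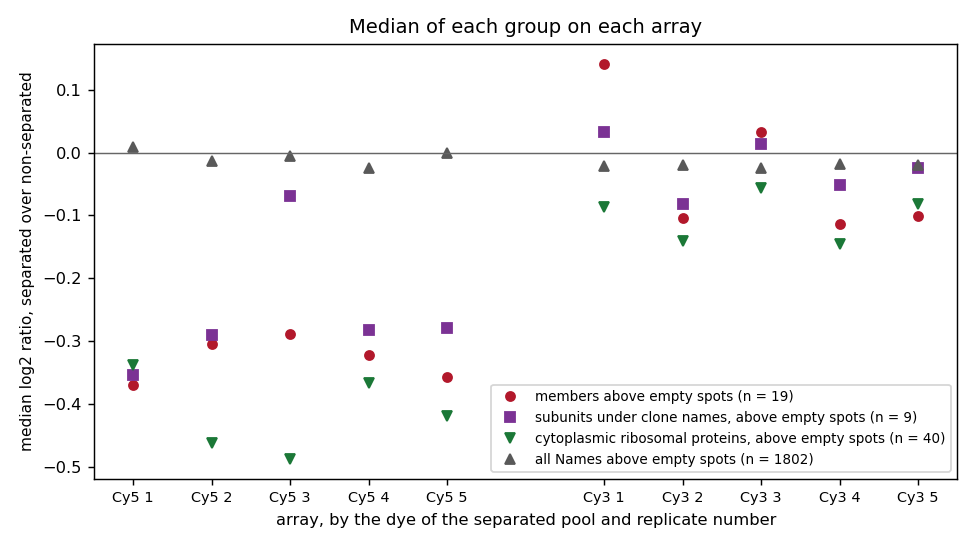
Median log2 ratio on each array for the 19 members above empty spots, the 9 subunits under clone names, the 40 cytoplasmic ribosomal protein Names and all 1802 Names above empty spots. Each point is 1 array, labelled by the dye of the separated pool; the 3 gene groups lie below the grey triangles on every Cy5 array, and closer to them or above them on the Cy3 arrays.

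Many subunits of the same complexes were printed under RIKEN clone names, which the choice of members did not use. Their symbols were found in the RefSeq gene table, giving 30 further Names, 9 of them above empty spots. The median of the 30 was -0.16 ± 0.06, below 0 on 10 of 10 arrays, with 23 of 30 Names below 0, beside 48.6% of all Names. All 9 above empty spots had means below 0 (-0.41 to -0.01), beside 44.2% of the 1802. The median of the 9 was below 0 on 8 of 10 arrays. In the 2 orientations the median of the 30 was -0.13 and -0.11, and that of the 9 was -0.27 and -0.07. No clone-named subunit reached 1.5-fold with one sign on every array, beside 0.191% of all Names lower and 0.0593% higher by that rule.

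Uqcrh, the hinge subunit of complex III, was the 1 of 30 clone-named subunits below 0 on every array, beside 1.05% of all Names. It stood at -0.41 ± 0.22, with -0.36 in the Cy5 orientation and -0.46 in the other. The remaining complex II subunits appeared here, the iron-sulphur subunit Sdhb at -0.16 ± 0.18 and the membrane anchors Sdhc (-0.02 ± 0.36) and Sdhd (-0.25 ± 0.40), of which Sdhb was above empty spots. Complex I added 17 Names with a median of -0.18, among them Ndufab1, the mitochondrial acyl carrier protein, at -0.23 ± 0.34 and Ndufb3, a membrane-arm subunit, at -0.25 ± 0.25. Complex III added 5 Names (median -0.10), complex IV added Cox6b1 (-0.12 ± 0.25) and complex V added 4 (median -0.04). The clone-named assembly factors, 19 Names, had a median of -0.08, and 1 of them was below 0 on every array, beside 1.05% of all Names. This was Cox14, known in human cells to aid synthesis of a core complex IV subunit, at -0.53 ± 0.28 but not above empty spots.

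Genes that feed or regulate the chain lay near 0 as a group. Over 42 further Names of the pathway the median was -0.02 ± 0.09. Of the 42, 24 were below 0, beside 48.6% of all Names, and 0 of one sign on every array, beside 1.05% and 0.454%. They cover the citrate cycle, pyruvate dehydrogenase, electron transfer flavoprotein, carriers, coenzyme Q synthesis, cytochrome c, the ATP synthase inhibitor, uncoupling, superoxide defence and regulators. The citrate cycle had 9 of 11 Names below 0 (median -0.06), and the electron transfer flavoprotein 3 of 3 (-0.19, none above empty spots). Pyruvate dehydrogenase had 0 of 3 below 0 (0.11). Cycs, cytochrome c itself, averaged 0.00 ± 0.71 because its orientation means were -0.65 and 0.66. Atpif1, the inhibitor of ATP synthase, read -0.24 ± 0.22 and was below 0 on 9 arrays. Mdh2, the malate dehydrogenase of the citrate cycle, read -0.30 ± 0.23, and Cs, citrate synthase, read -0.54 ± 0.59 but was not above empty spots. The coactivator Ppargc1a (-0.04 ± 0.20) and the mitochondrial transcription factor Tfam (0.01 ± 0.41) were not above empty spots.

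By the median of Names above empty spots, the 2 ribosomal protein groups lay on opposite sides of the chain members. The 40 cytoplasmic ribosomal protein Names above empty spots had a median of -0.27 ± 0.17, with all 40 below 0, beside 44.2% of the 1802. Of the 40, 10 were below 0 on every array, beside 4.27% of the 1802, and 27 had both orientation means below 0, beside 19.7%. They shared the orientation pattern (-0.44 and -0.09). The 7 mitochondrial ribosomal protein Names above empty spots had a median of 0.16 ± 0.11, with 6 of 7 above 0 (medians of -0.05 and 0.08 by orientation). All 7 had orientation means of opposite sign, beside 66.2% of the 1802, and 0 kept one sign on every array. All 53 mitochondrial ribosomal protein Names had a median of 0.02. Of the cell markers, the astrocyte list had the lowest median, -0.34 over 9 Names (-1.22 to 0.18). Of these, 8 were below 0 and 3 of them on every array, beside 48.6% and 1.05% of all Names. By the 1.5-fold rule with one sign, 2 of the 9 were lower, beside 0.191%. Only 4 astrocyte Names were above empty spots, with a median of -0.26. Of the 4, 2 were below 0 on every array, beside 4.27% of the 1802. The other 2 were above 0 on every Cy5-orientation array and below 0 on every other, beside 10.4% of the 1802. The value of -1.22 came from a Name not above empty spots. Lists for neurons (5 Names, median -0.04), oligodendrocytes (6, 0.07), microglia (5, 0.09), vessels (4, -0.10), blood (3, -0.05) and choroid plexus (2, 0.33) were small, and no Name of the microglia, vessel or choroid plexus lists was above empty spots. Of the blood list, the 1 Name above empty spots was Hbb-b1, a haemoglobin chain of red cells, at 0.45 ± 0.16 and above 0 on all 10 arrays, while Hba-a1 (-0.05 ± 0.49) and Alas2 (-0.20 ± 0.55) were dim. The part of astrocyte and blood RNA in the chain members' values was not tested.

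**Figure D4:**
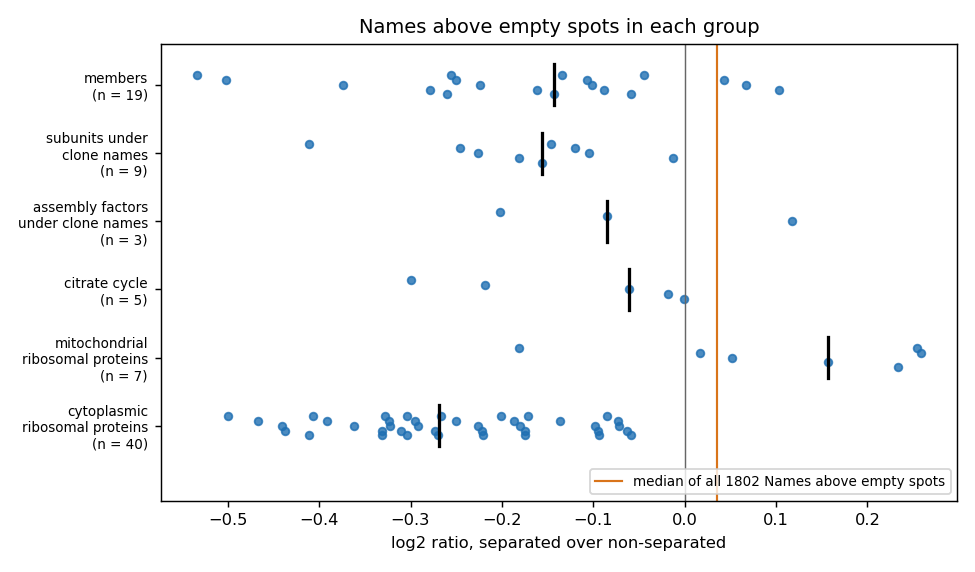
Log2 ratio of each Name above empty spots in 6 groups, with black bars at the group medians. The orange line is the median of all 1802 Names above empty spots (0.04); members, clone-named subunits and cytoplasmic ribosomal proteins lie mostly to its left, and 5 of the 7 mitochondrial ribosomal proteins lie to its right.

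Spots that share a Name show how far a single spot can be trusted. Among the 17 members with several spots, the distance between the lowest and highest spot ranged from 0.09 (Atp5a1) to 0.77 (Cox7a2l), with a median of 0.31. All spots of a Name fell on one side of 0 for 7 Names, among them Atp5o, Atp5pb, Sdha and Ndufa2, and on both sides for 10. In only 2 Names, Atp5pb and Cox7a2l, was more than 1 spot above empty spots, so most of these distances compare a bright spot with a dim one. The files give no clone or probe identifier that would show whether spots of a Name carry the same cDNA. The 65 spots were spread over 38 of 48 printing blocks, with at most 3 in a block. The 2 vacuolar ATP synthase spots, which belong to the pump that acidifies vesicles, read 0.07 ± 0.56 and 0.40 ± 0.32 and were not above empty spots.

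**Figure D5:**
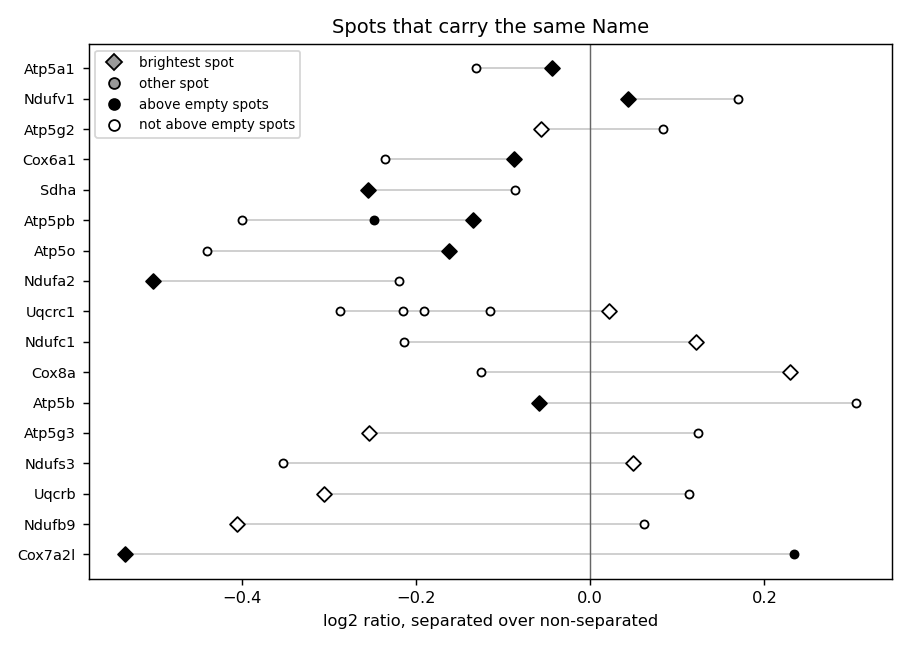
Log2 ratio of every spot of the 17 member Names with more than 1 spot, sorted by the distance between spots. Diamonds are the brightest spots and filled symbols are above empty spots; the distance grows from 0.09 for Atp5a1 to 0.77 for Cox7a2l, whose 2 filled symbols lie on opposite sides of 0.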

How the data were processed

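Each array file held 24192 spots. Per the file headers, QuantArray gave each spot an intensity on a linear scale, with the intensity of the local background and its SD as other columns. Local background was 0 for 91.3 to 99.9% of spots. The authors also deposited log2 ratios for 19025 spots per array, by a normalization that no source used here states. Each column had a median between 0.001 and 0.009 and a median absolute deviation of 0.355. They correlated with separated over non-separated ratios at -0.956 to -0.916, so they ran as non-separated over separated and were turned.

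From the deposited intensities, limma 3.58.1 (R 4.3.3) gave normexp-corrected values (offset 50) and a global loess per array with zero weight on controls. The procedure was also run on simulated data in which only bright Names were changed, so that run does not cover the dim members. Spots named only EST or ESTs (2154) were left out of the Names, and 1170 empty and 204 other control spots out of all counts. Alternatives were other background, normalization, spot and array choices. Symbols were assigned to Names by hand. Members named one by one are those of one sign on every array, the 3 lowest and 3 highest above empty spots per complex, complex II, Names with at least 3 spots, and isoform families, with a few others named after their values were seen. Members and lists were chosen with earlier results of these data known. Same-numbered arrays of the 2 orientations did not deviate together, so the number was not used as a pair. The number of arrays limits the precision.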

Additional observations from a re-analysis of the deposited data

Results flagged for a closer look

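In 66 groups of 5 arrays of one orientation (the named members and the medians of the complexes), 3 held an array that stood apart from the other 4 by Dixon's criterion, and about 1 in 20 such groups, or 3.3, would do so by chance. Cox6a2 read 0.10 on replicate 4 of the Cy3 orientation (separated pool labelled by Cy3), and -0.52 to -0.38 on its other arrays. Ndufa4 read -0.81 on replicate 4 of the Cy5 orientation, and -0.51 to -0.39 on the others. Ndufs5 read -0.58 on replicate 1 of the Cy5 orientation, and -0.37 to -0.29 on the others.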

How the results depend on the processing

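Members that reached 1.5-fold with one sign on every array numbered 0 by the main processing. Median centring without loess gave 1 (Cox7a2l), the Cy5 orientation alone 6 (5 lower, 1 higher), the Cy3 orientation alone 1 (Cox7a1), and a limit of 1.3-fold 3 (Cox7a2l, Ndufa2 and Ndufb9). Members of one sign on every array at any size numbered 4. The median over all spots of a Name left 1 (Atp5l), the Cy5 orientation alone gave 21, and the Cy3 orientation alone 11, both over 5 arrays. With the replicate block, which averages the 2 orientations of a number first, 11 were below 0 on all 5 averages and 0 above. The numbers do not pair the arrays, so this is only a count over fewer values. The share of all Names passing these rules was not counted under the alternatives. These counts therefore have no background beside them and are no result about the members. The median of complex I moved to -0.22 over Names above empty spots and to -0.19 in the Cy5 orientation, that of complex V to -0.29 in the Cy5 orientation, and that of members above empty spots to -0.37 there. The other alternatives moved these medians by less than their SD over arrays. That SD includes the shift between the orientations, so a median could change sign within it. The complex II median, which is Sdha alone, was -0.67 in the Cy5 orientation and 0.16 in the Cy3 orientation. In the same order, that of complex IV was 0.19 and -0.10, and that of complex I -0.19 and 0.02. The medians of complex III (-0.10 and -0.18) and complex V (-0.29 and -0.01) stayed below 0 in both. Leaving out each array in turn gave 4 to 5 members of one sign (Atp5o joined without replicate 3 of the Cy5 orientation). This count could not fall below 4, because a member below 0 on every array stays so on fewer arrays. The median of the members above empty spots was then -0.16 to -0.14. In the authors' deposited table that median was -0.11. Of the 4 members below 0 on every array, Ndufb9 dropped out under median centring and in the authors' deposited table, Ndufb9 and Atp5l under loess within printed blocks, and Ndufa2, Ndufb9 and Cox7a2l under the median over spots. The mean of Cox7a2l is set by the choice between its 2 spots. No alternative turned the sign of the mean of these 4 members. Alternatives that only drop or average arrays could not do so, because these members were picked as below 0 on every array. Signal over background limits the 25 members that were not above empty spots, and 1 pool per group limits every value.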
